A study of Mus musculus with 24 samples.

Results

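The acrosome is the vesicle that caps the front of the sperm nucleus. It grows out of the Golgi apparatus of the round spermatid, and it carries enzymes and binding proteins that are used when the sperm meets the coats of the egg. Transcripts for several of its proteins are made well before the vesicle can be seen, some of them already in spermatocytes, and are translated later. Described here are 10 genes for acrosome proteins (Acr, Acrbp, Acrv1, Zp3r, Zpbp, Zpbp2, Spaca1, Spaca3, Spaca4 and Spam1), taken by symbol through GENCODE M21 from a table of raw counts with 55536 genes. All 10 were found, and all 10 passed the filter on low counts in both cell fractions, where 19450 genes were tested in spermatocytes and 19310 in round spermatids.

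Polyadenylated RNA was sequenced from pachytene/diplotene spermatocytes (SP) and from round spermatids (RS) of Ago413+/+ (wild-type), Ago413+/- (heterozygous) and Ago413-/- (null) mice. The Ago413 allele is a deletion on chromosome 4 that takes away Ago1 and parts of its neighbours Ago3 and Ago4, which encode Argonaute proteins. It was made in embryonic stem cells of another strain and deleted with a Sox2-Cre strain, so it is constitutive rather than limited to germ cells, and what remains of Ago3 and Ago4 can still be transcribed. All mice were adults of 10 to 15 weeks on a C57BL/6J background and received no treatment. The cells were enriched on a bovine serum albumin gradient from pooled testes of 2 to 5 mice, and fractions above 70% purity were combined, so each library comes from several animals. After leaving out 3 libraries that the labels call outliers, 21 libraries remained: 4 wild-type, 3 heterozygous and 3 null for spermatocytes, and 3 wild-type, 4 heterozygous and 4 null for round spermatids.

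The libraries used held between 12825105 and 29749058 counts, and a member had between 772 and 16330 counts in any of them, so counting error was small beside the spread between pools. Levels are CPM, that is, counts relative to the total of the library after correction by TMM factors over all 21 libraries. For the 3 libraries called outliers the factors came from all 24 libraries, so their levels are not on exactly the same scale. A gene was called at an adjusted p under 0.05 by the quasi-likelihood test of edgeR with an absolute log2 fold change above 0.5. The fractions were checked against marker genes. All 10 spermatid markers (such as the transition proteins Tnp1 and Tnp2 and the protamine Prm1) were called higher in wild-type round spermatids than in wild-type spermatocytes, and of 10 spermatocyte markers 6 were called lower and 1, Syce2, higher. Spermatid transcripts were not absent from the spermatocyte fraction, with a summed level of 4467 to 10090 CPM over the 10 spermatid markers in wild-type spermatocytes against 26400 to 38070 CPM in wild-type round spermatids. In bulk RNA of this kind, fewer cells of a type and less RNA per cell cannot be told apart.

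Coordinates of the members are from GENCODE M21 (GRCm38/mm10). Of the soluble and matrix proteins, Acr encodes acrosin, a serine protease (chromosome 15, 89568326 to 89574585), and Acrbp the protein that binds its precursor (chromosome 6, 125049689 to 125063267). Acrv1 encodes the matrix protein also called SP-10 (chromosome 9, 36693220 to 36698843). Zp3r, also known as Sp56, encodes a matrix protein that binds the zona pellucida, the glycoprotein coat of the egg (chromosome 1, 130576713 to 130629621). The paralogs Zpbp (chromosome 11, 11279626 to 11462408) and Zpbp2 (chromosome 11, 98551097 to 98558665) encode zona pellucida binding proteins with a part in shaping the sperm head. Of the membrane proteins, Spaca1 (chromosome 4, 34024874 to 34050191) is needed for the shape of the acrosome, Spaca4 (chromosome 7, 45725107 to 45725813) is a small surface protein used in passing the zona, and Spam1 (chromosome 6, 24791188 to 24801048) is the surface hyaluronidase PH-20. Spaca3 (chromosome 11, 80858365 to 80867814) encodes a lysozyme-like protein of the acrosome. All 10 are protein-coding, with between 1 exon block (Spaca4) and 12 (Zp3r).

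Some members share sequence or position with another gene. Acrbp shared 29.8% of its 31-base words with other annotated transcripts, those of Gm44597 on the same strand and of 4930557K07Rik on the opposite one, so part of its reads could not be assigned with certainty. The shared portion was 4.6% in Zpbp, 1.76% in Acrv1 and 0.136% in Spam1, the last of these partly with the hyaluronidase gene Hyal5. Spaca4 lies opposite to Fam83e. Since the strand setting of the counting is not given in the sources used here, the levels of Acrbp, Zpbp and Spaca4 carry that uncertainty.

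Promoters of the members are shown first, so that they can be read beside the values that follow. Promoters (250 bases before and 50 from the annotated start, from RefSeq, GRCm38.p6, in the direction of transcription) were at hand for 9 members, all but Acr. Of these, the 6 that held a match to a motif searched are printed (Acrv1, Zp3r, Spaca1, Spaca3, Acrbp and Zpbp2). Capitals mark matches, on either strand, to the motifs given after the sequences.
Acrv1 (chr9:36692970-36693269, plus strand): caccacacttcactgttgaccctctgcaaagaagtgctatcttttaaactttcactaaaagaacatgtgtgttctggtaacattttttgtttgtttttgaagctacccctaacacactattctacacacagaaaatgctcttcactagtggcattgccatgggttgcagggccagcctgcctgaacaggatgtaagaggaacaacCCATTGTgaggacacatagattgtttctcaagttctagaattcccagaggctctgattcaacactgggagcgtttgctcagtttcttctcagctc
Zp3r (chr1:130629557-130629856, minus strand): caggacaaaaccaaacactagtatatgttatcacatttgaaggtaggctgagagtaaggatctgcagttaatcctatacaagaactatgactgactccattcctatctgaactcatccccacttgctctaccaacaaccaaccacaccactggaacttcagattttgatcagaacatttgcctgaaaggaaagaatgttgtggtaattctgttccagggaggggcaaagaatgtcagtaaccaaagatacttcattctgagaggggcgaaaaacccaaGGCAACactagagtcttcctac
Spaca1 (chr4:34050016-34050315, minus strand): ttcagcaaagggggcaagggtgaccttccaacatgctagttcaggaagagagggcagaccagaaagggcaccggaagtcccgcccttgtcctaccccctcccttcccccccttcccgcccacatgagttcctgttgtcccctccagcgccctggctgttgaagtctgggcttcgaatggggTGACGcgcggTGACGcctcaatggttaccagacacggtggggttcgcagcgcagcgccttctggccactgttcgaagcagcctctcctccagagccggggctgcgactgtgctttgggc
Spaca3 (chr11:80858113-80858412, plus strand): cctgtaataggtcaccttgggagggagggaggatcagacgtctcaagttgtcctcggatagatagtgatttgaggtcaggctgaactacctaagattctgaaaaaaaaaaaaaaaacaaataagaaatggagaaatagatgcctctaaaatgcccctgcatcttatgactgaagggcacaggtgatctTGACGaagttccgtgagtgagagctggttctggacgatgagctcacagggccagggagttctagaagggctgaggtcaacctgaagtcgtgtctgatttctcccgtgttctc
Acrbp (chr6:125049677-125049976, plus strand): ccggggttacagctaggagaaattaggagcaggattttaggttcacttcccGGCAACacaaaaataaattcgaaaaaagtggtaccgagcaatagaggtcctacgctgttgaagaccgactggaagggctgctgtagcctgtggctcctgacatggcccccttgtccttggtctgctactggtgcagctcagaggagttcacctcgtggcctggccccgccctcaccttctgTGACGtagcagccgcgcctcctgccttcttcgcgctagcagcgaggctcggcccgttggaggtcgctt
Zpbp2 (chr11:98550847-98551146, plus strand): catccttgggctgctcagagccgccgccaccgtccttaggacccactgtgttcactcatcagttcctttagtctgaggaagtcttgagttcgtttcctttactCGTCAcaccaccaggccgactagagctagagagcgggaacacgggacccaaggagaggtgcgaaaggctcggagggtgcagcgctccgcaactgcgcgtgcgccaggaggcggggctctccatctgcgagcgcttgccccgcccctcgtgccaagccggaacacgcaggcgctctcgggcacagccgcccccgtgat

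Motifs searched on both strands were the full cAMP response element TGACGTCA, its half-site TGACG, which the full element contains, the X-box half-site GTTGCC, the SOX motif ACAATGG and the TATA box TATAAA. Members were counted by gene, with a match at any annotated start, and all promoters singly, so the 2 units differ. The cAMP response element is bound by the spermatid regulator CREM. Its half-site was found in 4 of 9 members, beside 20.8% of all 32851 promoters searched. It lay 18 bases upstream of the start in Acrbp, at 69 and 59 bases upstream in Spaca1, 62 bases upstream in Spaca3 and 147 bases upstream, on the reverse strand, in Zpbp2. Spaca3 and Spaca1 each have a second annotated start, from which the distances differ. The X-box half-site, part of the motif read by RFX factors, was found in 2 of 9 (Acrbp and Zp3r, both on the reverse strand) beside 12.5% of all promoters. The SOX motif was found in 1 of 9, on the reverse strand 45 bases upstream of Acrv1, beside 3.66% of all promoters. The full element and the TATA box were in none of the 9, beside 1.79% and 13.6% of all promoters. The promoters of Spaca4, Spam1 and Zpbp held none of the motifs.

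**Figure D1:**
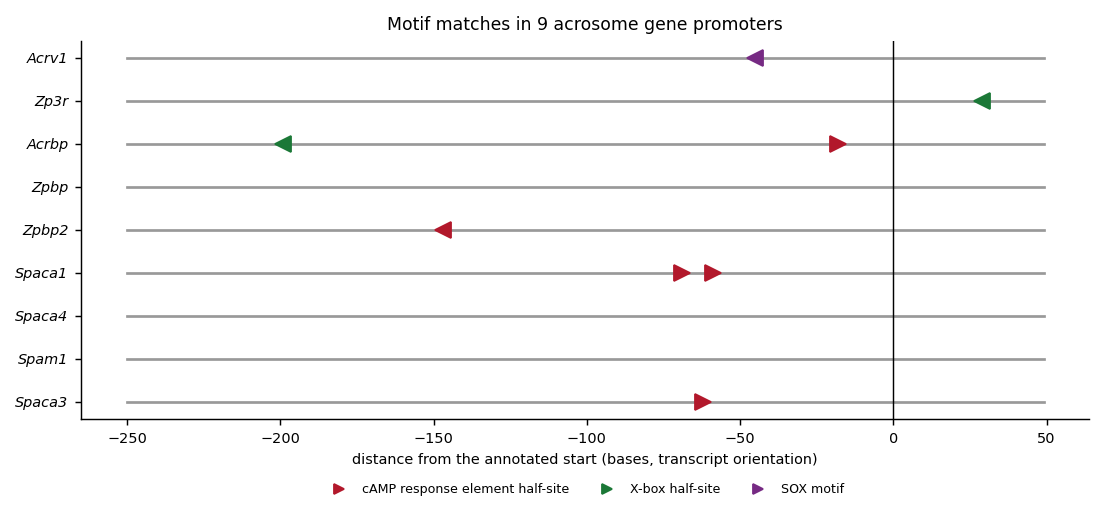
Each line is the promoter of a member, drawn from 250 bases before to 49 bases after the annotated start, and arrowheads are motif matches pointing in the direction of the motif (x axis, distance from the start in bases). The half-site of the cAMP response element is seen in Spaca3, Acrbp, Spaca1 and Zpbp2, and the lines of Spaca4, Spam1 and Zpbp are empty; where a gene has several annotated starts, that with the lowest coordinate is drawn.

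Levels between genes were compared per kilobase of exon (CPM per kb). The length was that of all annotated exons of a gene merged, from 707 bases in Spaca4 to 4248 bases in Zpbp. Where the transcripts made are shorter than that, a gene ranks too low. In wild-type spermatocytes the highest level belonged to Zpbp2, at 276.4 ± 25.1 CPM per kb (SD, n = 4), and its libraries did not overlap with those of the next gene, Acr, at 142.7 ± 14.4 CPM per kb. From Acr down to Spam1, at 38.9 ± 14.8 CPM per kb, no gene was separated from the next one in the order (Acr, Spaca1, Spaca4, Acrbp, Spaca3, Zpbp, Zp3r, Acrv1, Spam1). In wild-type round spermatids Zpbp2 again had the highest level, 210.2 ± 9.11 CPM per kb (SD, n = 3), and Spam1 the lowest, 44.2 ± 14.1 CPM per kb. Their order was Zpbp2, Spaca4, Spaca1, Acr, Spaca3, Acrbp, Zp3r, Zpbp, Acrv1 and Spam1, and libraries of neighbours were separated only after Zpbp2, after Spaca3 and after Zp3r.

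In the mutants the order shifted. In null spermatocytes Zpbp2, at 243 ± 21.6 CPM per kb (SD, n = 3), was followed by Spaca1 at 203.3 ± 18.4 and Spaca4 at 168.6 ± 6.82 CPM per kb, ahead of Acr. Neighbours were separated there after Zpbp2, after Spaca1, after Spaca3 and after Acrbp, and the lowest gene was Acrv1 at 69.6 ± 8.62 CPM per kb. In null round spermatids Spaca1, at 199 ± 7.73 CPM per kb (SD, n = 4), and Spaca4, at 197.3 ± 35.96 CPM per kb, overlapped with Zpbp2 at 181.1 ± 5.62 CPM per kb. In heterozygous spermatocytes Spaca1 stood first with a wide spread, 244.2 ± 135 CPM per kb (SD, n = 3), and no neighbours were separated. In heterozygous round spermatids the order ran from Zpbp2 at 198.3 ± 17.4 to Spam1 at 60.3 ± 7.86 CPM per kb (SD, n = 4), and neighbours were separated only between Acrbp and Zpbp.

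The first question was whether acrosome genes differed between genotypes in spermatocytes. Acrv1, Zp3r, Spaca1, Spaca3, Spaca4 and Spam1 had higher mean levels in null than in wild-type spermatocytes, between 1.48-fold and 1.82-fold by edgeR, while Acr, Acrbp, Zpbp and Zpbp2 differed by less than 0.2 on the log2 scale. These 6 were grouped after their values were seen. None of the 10 met the threshold in the fit of all 3 genotypes, and 6 of them did without 1 wild-type library. The values of each library come first.

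Acrv1 was at 119.1, 143.8, 119.3 and 232.6 CPM in wild-type spermatocytes (replicates 1, 2, 4 and 5), at 209.4, 181.5 and 348.1 CPM in heterozygous and at 282.4, 220.1 and 258.5 CPM in null spermatocytes. Wild-type replicate 5 was in the range of the null libraries and the other 3 wild-type libraries were below all mutant libraries. The fitted difference between null and wild-type was 0.74 on the log2 scale (SE 0.26, adjusted p = 0.0930). For Zp3r the wild-type libraries were at 110.9, 125.4, 119 and 196.8 CPM, the heterozygous at 198.9, 186.3 and 296.1 CPM and the null at 224.3, 206.4 and 239.5 CPM. Here all 3 null libraries were above all 4 wild-type libraries, and the fitted difference was 0.71 (SE 0.22, adjusted p = 0.0720).

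Of the genes for membrane proteins, Spaca1 was at 159.7, 190.3, 171.3 and 298.7 CPM in wild-type, 292.4, 240.1 and 636.7 CPM in heterozygous and 343.5, 290.6 and 339.1 CPM in null spermatocytes. Wild-type replicate 5 lay between null values, and heterozygous replicate 3 held the highest level of the gene in any library used. The difference between null and wild-type was 0.68 (SE 0.30, adjusted p = 0.147). Spaca4 was at 69.1, 57.4, 61.3 and 111.5 CPM in wild-type, 102.6, 100.8 and 159.8 CPM in heterozygous and 123.2, 120.5 and 113.8 CPM in null spermatocytes, again with replicate 5 as the wild-type library nearest to the null libraries but below all 3 of them. Its difference was 0.69 (SE 0.24, adjusted p = 0.0882). Spam1, the hyaluronidase, was at 64.7, 69.9, 75.4 and 134.8 CPM in wild-type, 131.2, 120.9 and 165.1 CPM in heterozygous and 171.2, 130.7 and 162.6 CPM in null spermatocytes. Only wild-type replicate 5 reached into the null range, and the difference of 0.86 (SE 0.24, adjusted p = 0.0633) was the largest of the 10 members. The lysozyme-like Spaca3 was at 81.6, 80.1, 75.0 and 134.5 CPM in wild-type, 123.4, 109.6 and 226.4 CPM in heterozygous and 146.7, 128.7 and 132.7 CPM in null spermatocytes. It had the same layout of libraries, with a difference of 0.57 (SE 0.26, adjusted p = 0.161).

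The remaining members differed less between null and wild-type. Acr was at 218.6, 203.3, 216.6 and 256 CPM in wild-type and 225.4, 248.3 and 266.5 CPM in null spermatocytes. Its wild-type replicate 5 was also in the range of the null libraries, and its other wild-type libraries were below all null ones. In heterozygous spermatocytes Acr was at 236.1, 215 and 213.5 CPM. Over all 10 spermatocyte libraries Acr ranged from 203.3 to 266.5 CPM, Acrbp from 281.4 to 486.8 CPM and Zpbp from 256.9 to 472.2 CPM. The highest Acrbp and Zpbp values were both from heterozygous replicate 3. Their differences between null and wild-type were 0.16 (SE 0.14, adjusted p = 0.439) for Acr, -0.06 (adjusted p = 0.854) for Acrbp and 0.08 (adjusted p = 0.803) for Zpbp. Zpbp2 was at 435, 489.1, 424.3 and 512.1 CPM in wild-type, 347.1, 327.1 and 533.9 CPM in heterozygous and 367.3, 425.5 and 434 CPM in null spermatocytes, and was the only member besides Acrbp with a fitted difference below 0 (-0.17, SE 0.18, adjusted p = 0.522).

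**Figure D2:**
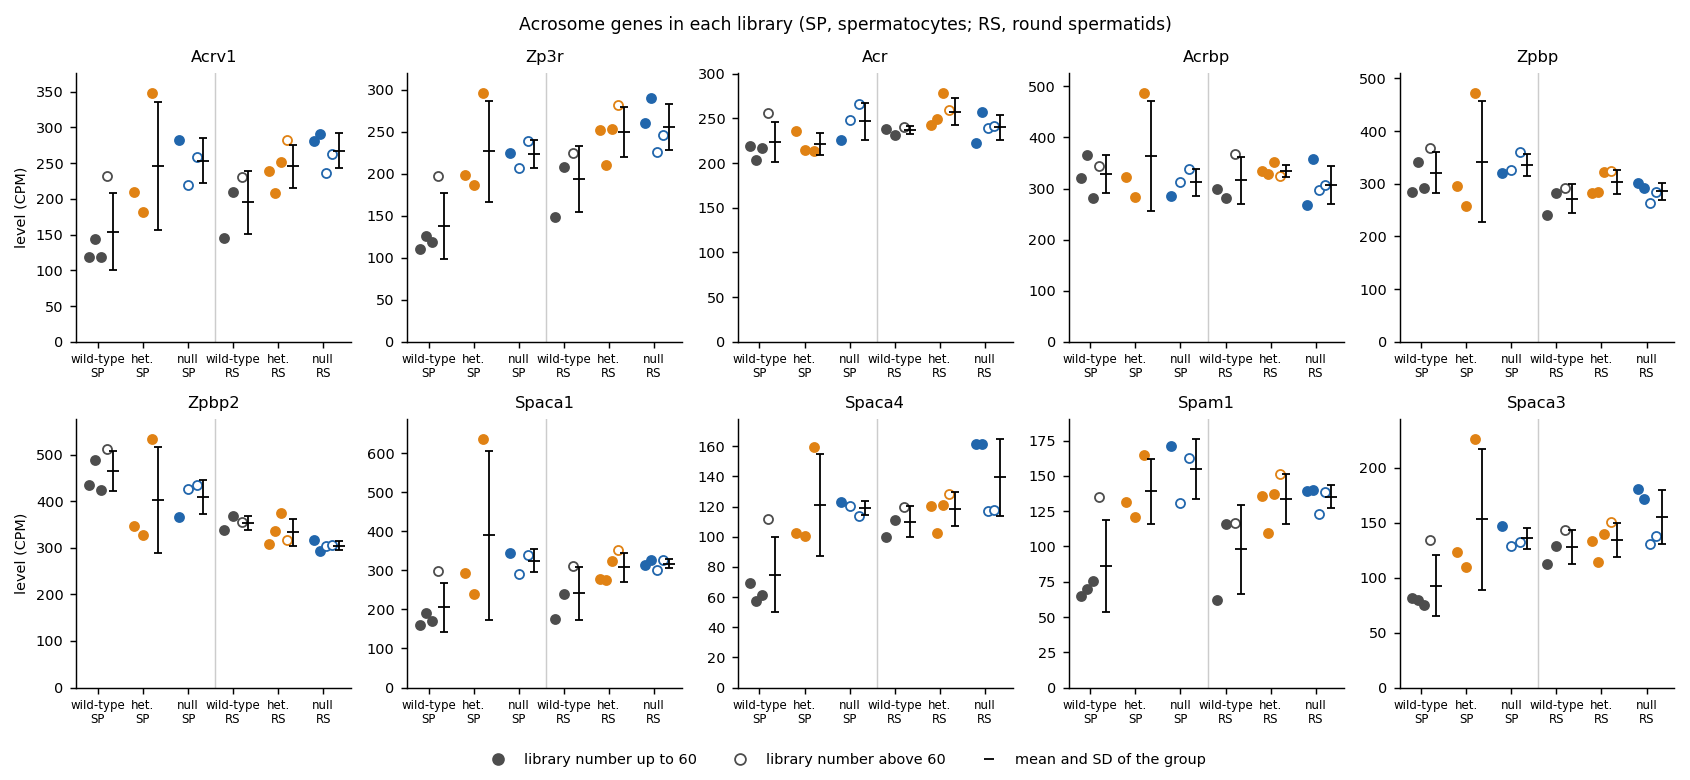
The level of each member in CPM (y axis, starting at 0) is drawn for every library of the 6 groups; filled points have library numbers up to 60, open points above 60, and bars give the mean and SD of a group. In Acrv1, Zp3r, Spaca1, Spaca3, Spaca4 and Spam1 3 wild-type spermatocyte libraries sit low and the open wild-type point lies near the null libraries. Acr shows the same layout with smaller differences, and Acrbp and Zpbp show no such layout.

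Counted over the list, edgeR called 0 of 10 members between null and wild-type spermatocytes, where it called 0.0411% of all genes tested. At an unadjusted p under 0.05 there were 6 of 10, beside 30.4% of all genes, and DESeq2, a second count test, called 2 of 10, Spam1 (adjusted p = 0.0188) and Zp3r (adjusted p = 0.0330), beside 15.2% of all genes. Without the filter on low counts edgeR called 5 of 10 (Spam1, Acrv1, Zp3r, Spaca1 and Spaca4, adjusted p between 0.00142 and 0.0160), beside 7.61% of the genes then tested. The median difference over the members was 0.62 on the log2 scale, beside -0.03 over all genes tested. Of the 10, 8 had a positive difference. The libraries of null and wild-type did not overlap in 2 members, Zp3r and Spaca4, both higher in null, beside 28.0% of all genes in either direction.

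Heterozygous spermatocytes were next compared with wild-type ones. The differences were 0.97 for Spaca1 (SE 0.30, adjusted p = 0.125), 0.76 for Zp3r (SE 0.22, adjusted p = 0.124), 0.76 for Spaca3, 0.73 for Spaca4, 0.73 for Spam1 and 0.72 for Acrv1 (adjusted p between 0.124 and 0.142). Acr, Acrbp, Zpbp and Zpbp2 lay between -0.16 and 0.19. No member was called by edgeR, which called 0.0257% of all genes here. An unadjusted p under 0.05 was seen for 6 of 10, beside 24.6% of all genes, and DESeq2 called 2 of 10, Spaca1 (adjusted p = 0.0495) and Zp3r (adjusted p = 0.0434), beside 6.16% of all genes. The libraries of heterozygous and wild-type overlapped in all 10 members, where 17.6% of all genes did not overlap. Both comparisons use the same wild-type libraries, so they are not separate evidence. Directly compared, null and heterozygous spermatocytes differed by -0.29 to 0.13 over the members, with 0 of 10 called by edgeR (0.00514% of all genes), 0 of 10 by DESeq2 (0.0206%) and 0 of 10 at an unadjusted p under 0.05 (3.74%). The median was -0.05 and 3 of 10 were higher in null.

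These calls turned on wild-type spermatocyte replicate 5. Its summed level over the 10 members was 2589 CPM, against 1863, 2067 and 1836 CPM in the other 3 wild-type libraries and 2409 to 2645 CPM in the null ones. Without it, edgeR called 6 of 10 members higher in null than in wild-type spermatocytes, beside 23.6% of all genes. They were Spam1 (1.18, SE 0.17, adjusted p = 0.00264), Acrv1 (1.02, adjusted p = 0.0114), Spaca4 (0.96), Zp3r (0.94), Spaca1 (0.93) and Spaca3 (0.81, adjusted p = 0.0307). Acr, Acrbp, Zpbp and Zpbp2 were not called without it either, with differences between -0.11 and 0.24. Against heterozygous spermatocytes 6 of 10 were then called as well (Spaca1, Spam1, Spaca3, Spaca4, Acrv1 and Zp3r), with differences between 0.99 and 1.22, beside 15.5% of all genes. Heterozygous replicate 3 stood apart in the other direction, with a summed level over all 10 members of 3539 CPM against 2022 to 2645 CPM in the other 5 mutant spermatocyte libraries. Without it the median difference between heterozygous and wild-type spermatocytes went from 0.73 to 0.38, and Spaca1 went to 0.42, Spaca3 to 0.37 and Acrv1 to 0.39. The members at an unadjusted p under 0.05 were then 4 of 10, beside 23.4% of all genes. The comparison of null with heterozygous spermatocytes also turned, to 10 of 10 members higher in null by 0.0087 to 0.35, with a median of 0.22 and Spaca1 at 0.25, and still with none called.

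The label numbers of the libraries set the same library apart. Wild-type replicate 5 alone of the wild-type spermatocyte libraries used carries a number above 60, as do null replicates 2 and 3, while the other 3 wild-type and null replicate 1 carry numbers up to 60, so values within the 2 ranges restate where that library lies and are not separate evidence. What the numbers stand for is not given in the sources used here. Among numbers up to 60, null replicate 1 was above the mean of the 3 wild-type libraries by 1.29 on the log2 scale for Spam1, 1.15 for Acrv1, 0.99 for Spaca1, 0.98 for Spaca4, 0.92 for Zp3r and 0.90 for Spaca3, and the median over all 10 members was 0.91. Among numbers above 60, the 2 null libraries differed from the 1 wild-type library by -0.25 (Zpbp2) to 0.18 (Zp3r), with a median of 0.02. Both parts hold too few libraries for a test. With a term for the 2 ranges in the fit, the differences between null and wild-type were between 0.48 (Spaca3) and 0.77 (Spam1) for these 6 genes, with no member called (adjusted p between 0.167 and 0.309).

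**Figure D3:**
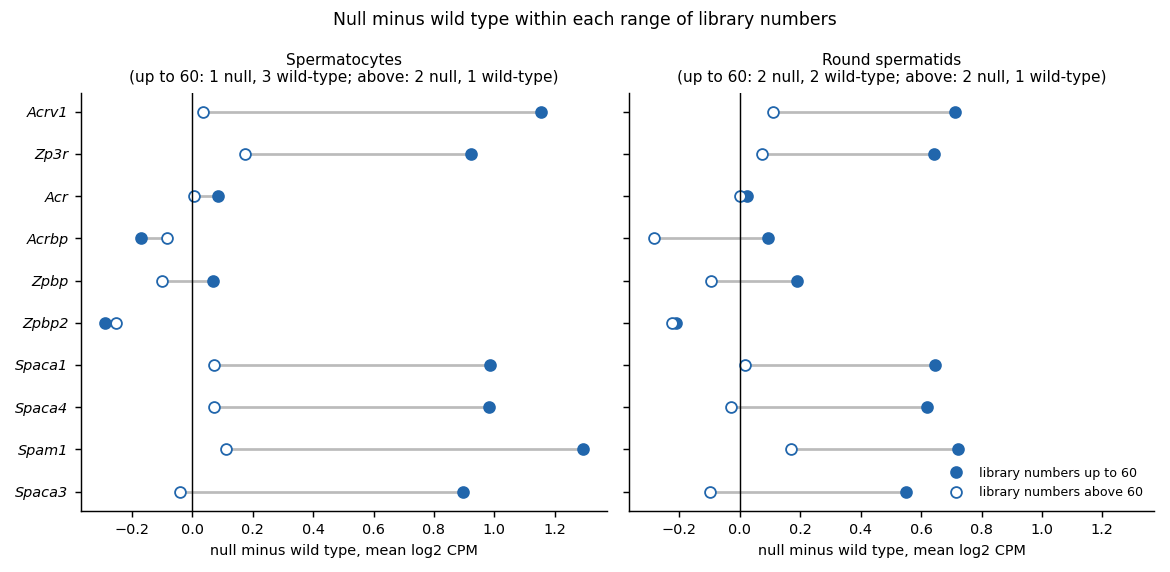
Null minus wild-type mean log2 CPM (x axis) is drawn for each member within library numbers up to 60 (filled) and above 60 (open), in spermatocytes on the left and round spermatids on the right, without error bars because most parts hold 1 or 2 libraries a group. The filled points of Acrv1, Zp3r, Spaca1, Spaca3, Spaca4 and Spam1 lie at 0.55 or more in both fractions and their open points between -0.10 and 0.18; Acr and Zpbp2 change little between the ranges.

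Levels of cell type markers were set beside these results. The summed level of the 10 spermatocyte markers was 1153, 775.5, 1555 and 671.2 CPM in wild-type spermatocytes, 830.1, 568 and 541.1 CPM in heterozygous and 483.4, 683.9 and 680.5 CPM in null ones, so that wild-type replicate 5 was the lowest wild-type library. In null against wild-type spermatocytes 8 of the 10 had a lower fitted level, with a median of -0.77. Of them, 6 had an unadjusted p under 0.05, beside 30.4% of all genes. None of the 10 was called by edgeR and 4 (Sycp3, Meiob, Hormad1 and Piwil1) were by DESeq2, beside 15.2% of all genes. Sycp3, a protein of the synaptonemal complex that holds paired chromosomes together, was at 133.3 CPM in wild-type and 64.9 CPM in null spermatocytes on average (-1.01, SE 0.26, adjusted p = 0.0599).

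Spermatid markers did not move in the same way. Their summed level was 10090, 10060, 4467 and 9809 CPM in wild-type, 10660, 10080 and 8605 CPM in heterozygous and 14910, 8460 and 5208 CPM in null spermatocytes, with overlapping ranges. The median difference of the 10 between null and wild-type was 0.22, 0 of 10 were called by edgeR (1 by DESeq2), and the 1 with an unadjusted p under 0.05 was the calcium channel gene Catsper4 (0.97). The 8 spermatogonia markers summed to 39.7 to 50.4 CPM in wild-type, 69.0 to 91.8 CPM in heterozygous and 47.6 to 78.7 CPM in null spermatocytes. Of these 8, edgeR called 1 higher in heterozygous than in wild-type spermatocytes, beside 0.0257% of all genes. It was Stra8, a gene switched on at the entry into meiosis (2.08, SE 0.27, adjusted p = 0.0107). DESeq2 called 4 (Stra8, Kit, Dmrt1 and Sohlh1), beside 6.16% of all genes. In null against wild-type spermatocytes 6 of 8 had a higher fitted level. An unadjusted p under 0.05 was seen for 4, all higher, beside 30.4% of all genes. Among them were Kit (1.10, adjusted p = 0.0618) and Stra8 (1.05, adjusted p = 0.0599), the 2 that DESeq2 called (15.2% of all genes). Mean levels of Uchl1 (17.3 CPM in wild-type and 15.0 CPM in null) and Gfra1 (5.33 and 5.14 CPM) were lower in null. The 14 markers of somatic and blood cells summed to 27.1 to 52.0 CPM in wild-type, 16.0 to 68.8 CPM in heterozygous and 21.9 to 35.5 CPM in null spermatocytes. Of those, the globin gene Hba-a1 was at 0 in all 4 wild-type and all 3 heterozygous libraries and in 2 null libraries. None of the 12 that could be tested was called by edgeR. The macrophage markers Csf1r (0.352 CPM in wild-type and 0.976 CPM in null on average, 1.46, adjusted p = 0.0636) and Adgre1 (1.81 and 3.96 CPM, 1.13, adjusted p = 0.0764) were the 2 with an unadjusted p under 0.05 between null and wild-type, and DESeq2 called both. The part of any of these markers in the differences of the acrosome genes was not tested.

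**Figure D4:**
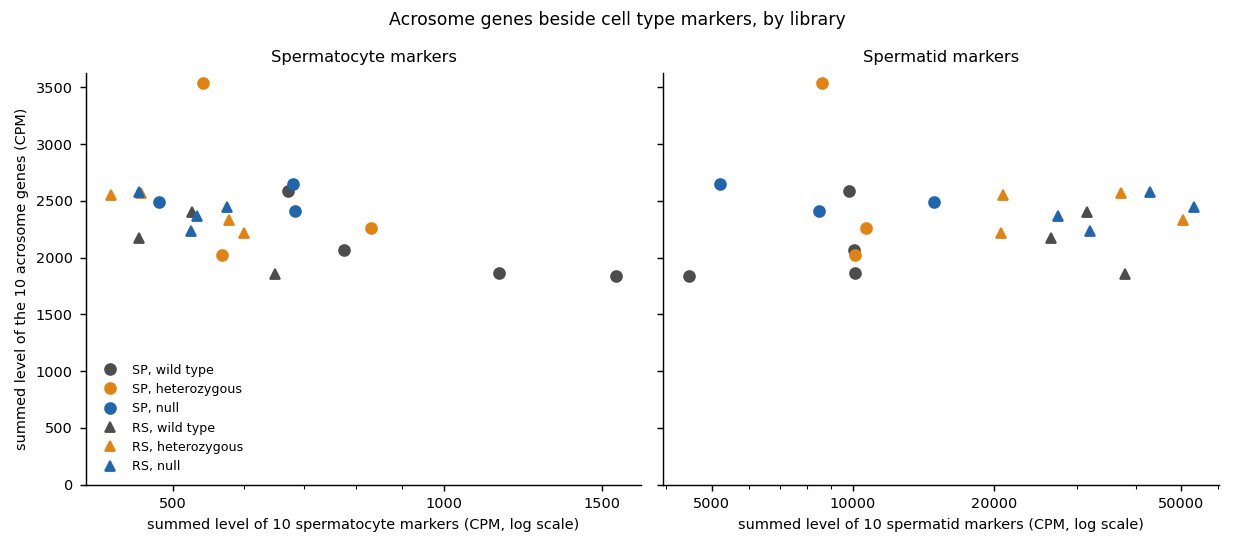
The summed level of the 10 members (y axis, CPM) is plotted against the summed level of 10 spermatocyte markers (left) and 10 spermatid markers (right, both x axes in CPM on a log scale), 1 point per library, circles for spermatocytes and triangles for round spermatids. The 3 wild-type spermatocyte libraries with the lowest acrosome sums, 1836 to 2067 CPM, have spermatocyte marker sums between 775.5 and 1555 CPM, while the fourth lies with the null libraries. Heterozygous spermatocyte replicate 2 has a low acrosome sum, 2022 CPM, with a spermatocyte marker sum of 568 CPM. In heterozygous replicate 1 the sums are 2260 and 830.1 CPM.

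In round spermatids the same members had higher mean levels in null than in wild-type, by 0.24 to 0.43 on the log2 scale, with none called. Libraries of the 2 fractions with consecutive numbers had correlated deviations from their group means (above 0.1) in 8 of 9 pairs. Whether such pairs came from 1 preparation is not given, so the 2 fractions may not be separate evidence. Acrv1 was at 145.4, 209.2 and 230.7 CPM in wild-type, 239.3, 208.8, 251.9 and 281.8 CPM in heterozygous and 281, 290.3, 235.6 and 262.9 CPM in null round spermatids. All 4 null libraries were above all 3 wild-type ones, and the difference was 0.42 (SE 0.15, adjusted p = 0.161). Zp3r was at 149.1, 208.1 and 224.4 CPM in wild-type, 251.8, 210.7, 253.9 and 282.3 CPM in heterozygous and 260.8, 290.2, 226.4 and 245.7 CPM in null round spermatids, likewise without overlap between null and wild-type (0.37, SE 0.15, adjusted p = 0.195). Spam1 was at 61.8, 115.7 and 116.3 CPM in wild-type, 135.9, 109.7, 137.1 and 151.6 CPM in heterozygous and 139.1, 139.9, 123.2 and 138.5 CPM in null round spermatids. It did not overlap either, and wild-type replicate 1 was far below the other 2 (0.43, SE 0.19, adjusted p = 0.222).

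The other members with a positive difference overlapped between null and wild-type round spermatids. Spaca1 was at 175, 239.9 and 310.4 CPM in wild-type, 278.3, 274.5, 324.4 and 353.5 CPM in heterozygous and 314.9, 326.2, 301.2 and 327.8 CPM in null round spermatids (null against wild-type 0.37, SE 0.17, adjusted p = 0.246). Spaca4 was at 99.7, 110.9 and 119.8 CPM in wild-type, 120.6, 102.2, 121.4 and 128.6 CPM in heterozygous and 161.7, 161.3, 117.3 and 117.6 CPM in null round spermatids, where null replicates 1 and 2 were high and replicates 3 and 4 within the wild-type range (0.31, SE 0.13, adjusted p = 0.221). Spaca3 showed the same split among null libraries, 180.7 and 171.8 CPM against 130.3 and 137.6 CPM, beside 112.6, 128.6 and 143.2 CPM in wild-type and 133.5, 114.1, 139.8 and 150.7 CPM in heterozygous ones (0.24, SE 0.13, adjusted p = 0.336).

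Zpbp2 alone had all its null round spermatid libraries below all wild-type ones. It was at 337.6, 368.1 and 355.5 CPM in wild-type, 308.9, 335.2, 374.4 and 316.3 CPM in heterozygous and 316.6, 293.5, 303.6 and 305.4 CPM in null round spermatids (-0.24, SE 0.12, adjusted p = 0.267). Acr ranged from 222 to 278.3 CPM over the 11 round spermatid libraries, Acrbp from 267.5 to 367.7 CPM and Zpbp from 239.9 to 325 CPM. Their differences between null and wild-type were within 0.07 of 0 on the log2 scale.

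Over the list, edgeR called 0 of 10 members between null and wild-type round spermatids (0.0518% of all genes), with 5 of 10 at an unadjusted p under 0.05 (19.3% of all genes), and DESeq2 called 0 of 10 (3.62% of all genes). The median over the members was 0.27, beside 0.03 over all genes, and 7 of 10 had a positive difference. Without wild-type round spermatid replicate 1 the median was 0.16, Spam1 was at 0.19 and Acrv1 at 0.25, and 1 of 10 had an unadjusted p under 0.05, beside 12.3% of all genes. The libraries did not overlap in 4 members, 3 higher and 1 lower in null, beside 19.4% of all genes. Within library numbers, the members differed by -0.21 (Zpbp2) to 0.72 (Spam1) among numbers up to 60, with a median of 0.58 (2 null and 2 wild-type libraries), and by -0.28 (Acrbp) to 0.17 (Spam1) among numbers above 60, with a median of -0.01 (2 null libraries and 1 wild-type). Marker sums overlapped between null and wild-type round spermatids, at 458.9 to 574.4 against 458.9 to 650.6 CPM for spermatocyte markers and 27310 to 53330 against 26400 to 38070 CPM for spermatid markers. By gene, all 10 spermatid markers had a higher fitted level in null round spermatids, by 0.13 to 0.41 with a median of 0.23, and none was called by edgeR or DESeq2 (1 of 10 at an unadjusted p under 0.05). Of the spermatocyte markers 6 of 10 were lower, with a median of -0.20 and none called, among them Meiob (-1.02, adjusted p = 0.157), Piwil1 (-0.68, adjusted p = 0.281) and Hormad2 (-0.51, adjusted p = 0.255). Syce2 made up a large part of their sum, at 265.3 CPM on average in null and 228.9 CPM in wild-type round spermatids. Csf1r was higher in null here too (0.973 and 2.83 CPM, 1.44, adjusted p = 0.0845), not called by edgeR and called by DESeq2. The part of these markers in the members' values was not tested.

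Heterozygous round spermatids lay between the other genotypes in part of the members. Against wild-type, the differences ran from -0.07 for Zpbp2 to 0.45 for Spam1, with 0.37 for Zp3r, 0.36 for Spaca1 and 0.34 for Acrv1, but 0.08 for Spaca3 and 0.11 for Spaca4. No member was called by edgeR (0.0207% of all genes) or DESeq2 (0.0414%), and 4 of 10 had an unadjusted p under 0.05, beside 8.88% of all genes. Without wild-type round spermatid replicate 1 these became 0 of 10, beside 4.17% of all genes, and the median went from 0.15 to 0.077. They were also 0 of 10 with the outlier libraries added back, beside 955 of 19446 genes tested. Without heterozygous replicate 3 or 4 they were 0 of 10 too, and the share over all genes is not given here for those fits. Between null and heterozygous round spermatids the members differed by -0.17 to 0.20, with 0 of 10 called by edgeR (0.00518%), 0 of 10 by DESeq2 (0.104%) and 0 of 10 at an unadjusted p under 0.05 (7.67%).

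The second question was how the members differ between the fractions. In wild-type, Spaca4 was called higher in round spermatids than in spermatocytes (0.56, SE 0.20, adjusted p = 0.0446). It was the 1 of 10 members called, beside 24.2% of all genes. Zp3r (0.49, adjusted p = 0.0643), Spaca3 (0.46, adjusted p = 0.121), Acrv1 (0.34) and Spam1 (0.18) also had positive values but missed the threshold, as did Spaca1 (0.24). Zpbp2 was lower in round spermatids (-0.39, SE 0.14, adjusted p = 0.0462), a difference under the fold threshold. Acr, Acrbp and Zpbp were between -0.24 and 0.08. DESeq2 called 1 of 10 too, also Spaca4 (26.7% of all genes), and 4 of 10 had an unadjusted p under 0.05 by edgeR, beside 37.9% of all genes. For scale, the 10 spermatid markers had a median difference of 1.82 between the wild-type fractions, with a range of 0.54 to 2.04.

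Without wild-type spermatocyte replicate 5, 4 of 10 were called higher in wild-type round spermatids: Spaca4 (0.81), Zp3r (0.71), Spaca3 (0.70) and Acrv1 (0.62, adjusted p = 0.0253), beside 31.6% of all genes. Spaca4 was no longer called when the 3 outlier libraries were added back (0.40, adjusted p = 0.160), a fit in which edgeR called no gene between the wild-type fractions (5950 had an unadjusted p under 0.05), or when libraries with consecutive numbers, 1 of each fraction, were treated as 1 preparation (0.47, adjusted p = 0.0533). The call was also lost with RLE scaling (0.53, adjusted p = 0.0512), with only the compared groups fitted (0.57, adjusted p = 0.0762) and in 6 of the 7 fits that left out 1 library (adjusted p up to 0.143); it held without spermatocyte replicate 5.

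In heterozygous mice the members differed by -0.34 (Spaca1) to 0.22 (Acr) between round spermatids and spermatocytes, and in null mice by -0.42 (Zpbp2, adjusted p = 0.0408) to 0.23 (Spaca4). The median in heterozygous mice was -0.09 with 2 of 10 positive, and without heterozygous spermatocyte replicate 3 it turned to 0.18 with 9 of 10 positive. In heterozygous mice 0 of 10 were called by edgeR (8.89% of all genes), 0 of 10 by DESeq2 (11.2%) and 0 of 10 had an unadjusted p under 0.05 (23.6%). In null mice 0 of 10 were called by edgeR (17.1%) and by DESeq2 (19.9%), and the 1 of 10 with an unadjusted p under 0.05, beside 32.4% of all genes, was Zpbp2. Whether the difference between null and wild-type itself differed between the fractions was tested as an interaction. The members' values, round spermatids minus spermatocytes, ran from -0.38 (Spam1) to 0.03 (Acrbp), with a median of -0.27 beside 0.05 over all genes. No gene was called by edgeR or DESeq2 (0% of all genes), and 0 of 10 members had an unadjusted p under 0.05, beside 5.95% of all genes, so a change that is larger in spermatocytes than in round spermatids was not shown. Leaving out wild-type spermatocyte replicate 5 also gave no calls. Of the members, 3 of 10 then had an unadjusted p under 0.05, beside 3116 of all 20262 genes tested.

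**Figure D5:**
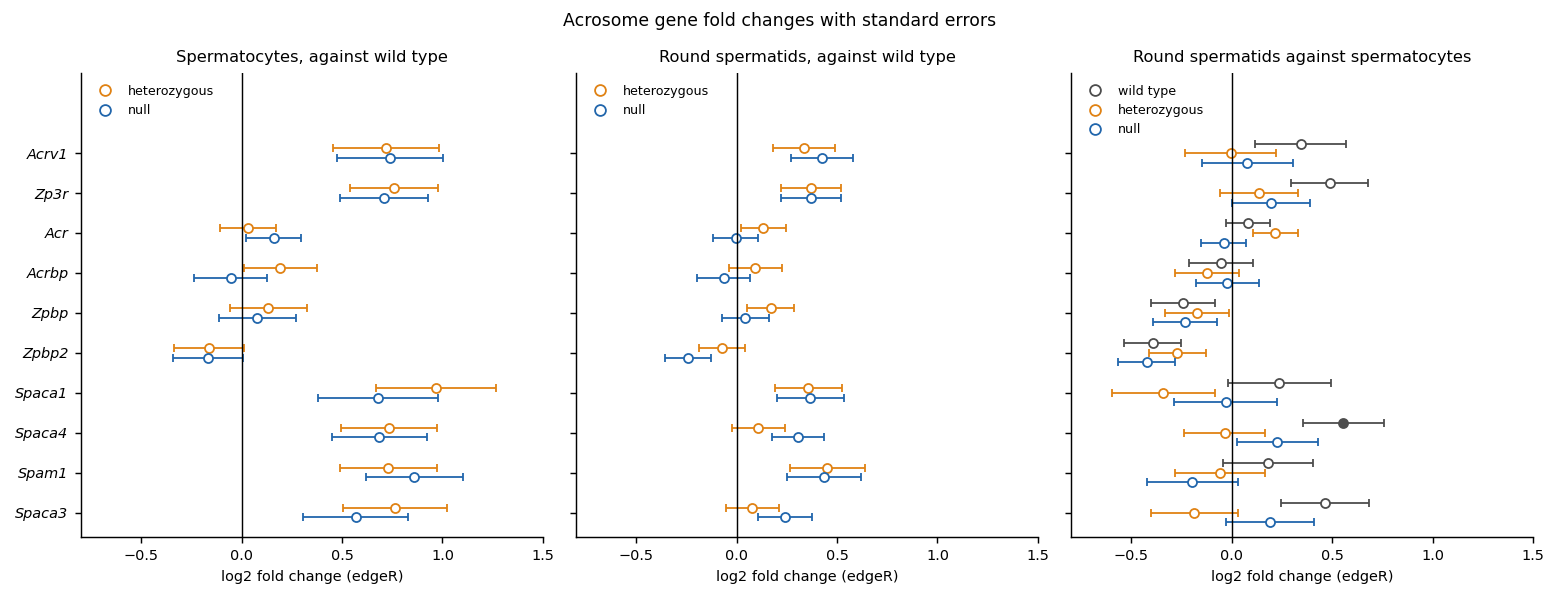
Points are edgeR log2 fold changes (x axis) with their standard errors for each member, against wild-type in spermatocytes (left) and round spermatids (middle) and between fractions in each genotype (right); a filled point is called. Heterozygous and null values of Acrv1, Zp3r, Spaca1, Spaca3, Spaca4 and Spam1 lie between 0.57 and 0.97 on the left and between 0.08 and 0.45 in the middle, and Spaca4 in wild-type is the 1 filled point.

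The members that were high together in a library could be seen from their correlations, which are given as a description. In the 10 spermatocyte libraries the 45 pairs of members had Pearson correlations of log2 CPM from -0.11 to 0.985, with a median of 0.595. The correlation with Acrv1 was 0.979 for Zp3r, 0.968 for Spaca3, 0.965 for Spaca1, 0.951 for Spam1 and 0.944 for Spaca4, and 0.674 for Zpbp, 0.472 for Acrbp, 0.410 for Acr and 0.129 for Zpbp2. In the 11 round spermatid libraries the 45 pairs ran from -0.46 to 0.982, with a median of 0.483, and the correlation with Acrv1 was 0.982 for Zp3r, 0.959 for Spam1, 0.946 for Spaca1, 0.823 for Spaca3, 0.792 for Spaca4, 0.782 for Zpbp, 0.234 for Acr, 0.181 for Acrbp and -0.42 for Zpbp2. These points share genotype, library number and the makeup of the fraction.

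Among 8478 other genes with a mean of at least 10 CPM, those most like the mean of the 10 members over the 21 libraries, after taking off the mean of each fraction, were Spata9 (r = 0.977), 4930558C23Rik (0.974), Lyzl1 (0.974), Ftmt (0.973) and Tmem190 (0.971). Their mean levels were 77.6 to 115.2 CPM. Of these 5, 2, Lyzl1 and Tmem190, are also in the list of other acrosome proteins used below.

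Other genes of the organelle were taken from 2 lists, 24 further acrosome proteins and 20 genes for forming the vesicle and shaping the head around it. All of them passed the filter in both fractions. Of the 24 proteins, 20 had a higher fitted level in null than in wild-type spermatocytes and 8, all higher, had an unadjusted p under 0.05 (30.4% of all genes). The median difference was 0.33. None was called by edgeR in either direction, and DESeq2 called 4 higher (15.2% of all genes), so both counts were near those over all genes. The 3 with the smallest adjusted p were Zan, which encodes zonadhesin, a protein that binds the zona pellucida (29.4 CPM in wild-type and 65.3 CPM in null spermatocytes on average, 1.17, SE 0.24, adjusted p = 0.0599), the hyaluronidase gene Hyal5 (84.3 and 156.5 CPM, 0.91, adjusted p = 0.0599) and Fam170b (176.1 and 272.8 CPM, 0.65, adjusted p = 0.0618). In heterozygous against wild-type spermatocytes 17 of 24 were higher, with a median of 0.28 and 10, all higher, at an unadjusted p under 0.05 (24.6% of all genes). None was called by edgeR and 3 by DESeq2 (6.16% of all genes).

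In round spermatids 16 of the 24 proteins were higher in null than in wild-type (median 0.19), with none called by edgeR, 2 called higher by DESeq2 (3.62% of all genes) and 7 at an unadjusted p under 0.05 (19.3%). The smallest adjusted p values belonged to Hyal5 (0.67, adjusted p = 0.0864), Pkdrej, which encodes a membrane receptor of the sperm head (-0.48, adjusted p = 0.121), and Spaca5, a lysozyme-like relative of Spaca3 (0.58, adjusted p = 0.123). Between the fractions in wild-type, 8 of the 24 were called higher and 1 lower in round spermatids, beside 24.2% of all genes in either direction.

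The 20 genes for acrosome formation were not shifted to one side. In null against wild-type spermatocytes 10 of 20 had a higher level, the median was -0.02, 8 had an unadjusted p under 0.05 (6 higher and 2 lower, beside 30.4% of all genes), none was called by edgeR, and DESeq2 called 2 higher and 1 lower (15.2% of all genes). Their smallest adjusted p values were those of Ccin, which encodes calicin of the cytoskeleton around the sperm nucleus (83.02 and 128.9 CPM, 0.65, adjusted p = 0.0618), Gopc, a Golgi protein needed for the fusion of vesicles (38.2 and 18.7 CPM, -1.01, adjusted p = 0.0706), and Actl7a, an actin-like protein (241.4 and 341.1 CPM, 0.52, adjusted p = 0.0852). In heterozygous against wild-type spermatocytes 8 of 20 were higher, with a median of -0.12, 5 at an unadjusted p under 0.05 (24.6% of all genes) and none called by edgeR or DESeq2. In round spermatids 12 of 20 were higher in null (median 0.03), with 2 at an unadjusted p under 0.05 (19.3%) and none called by either tool. Ccin (0.45, adjusted p = 0.124), Cylc1, which encodes cylicin of the same cytoskeleton (0.79, adjusted p = 0.216), and Gba2 (-0.21, adjusted p = 0.295) had the smallest adjusted p. Between wild-type fractions 5 were called higher and 4 lower in round spermatids, beside 24.2% of all genes.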

How the data were processed

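Bulk RNA-seq libraries of 2 germ cell fractions and 3 genotypes were read from 1 deposited table of raw counts for 24 libraries. The authors trimmed reads with TrimGalore and aligned them with STAR, whose gene counting gave the deposited counts; mm10 and these tools are also named in the submitters' processing notes, and the annotation release, strand setting and versions are not given in the sources used here. All 55536 identifiers matched GENCODE M21. Groups, replicate and library numbers came from the labels. The members, lists, marker genes and motifs were chosen with earlier results of these data known.

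Genes that reached 10 counts in 3 or more libraries of a fit were kept, as in the study's methods, with the fractions fitted apart and both together for comparisons between them. The main test was quasi-likelihood in edgeR (version 4.0.16, under R 4.3.3), with TMM scaling and Benjamini-Hochberg adjustment over all genes tested (called at adjusted p under 0.05 and absolute log2 fold change above 0.5), and DESeq2 1.42.0 was an alternative. SE is the absolute log2 fold change over the square root of F. The scripts were tested on simulated data. Named genes were all members, up to 3 genes of each list with the smallest adjusted p in null against wild-type, and 5 genes by likeness; other markers were named by their calls after their values were seen. A count of 0 allowed up to 0.223 CPM (3 counts) in the shallowest library used; such floors cover counting error only. Alternatives were RLE scaling, no filter, the outlier libraries added back, blocks by replicate number or by consecutive library numbers, a term for library numbers above 60, only the compared groups, and each library left out. Libraries are pools of mice; where nothing says that pools were prepared separately, p-values measure only the spread between libraries. No pair of libraries of a group was a repeat deposit (chi-square per gene 9.75 to 179 over 37 pairs). Genes of chromosome 18 are named without position.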

Additional observations from a re-analysis of the deposited data

Results flagged for a closer look

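Over 30 member and group combinations with 4 libraries, Dixon's test at the 95% level, which flags about 1 in 20 groups by chance, marked 4. In wild-type spermatocyte replicate 5, Spaca3 was at 134.5 CPM (the other 3 down to 75.0 CPM), Spam1 at 134.8 CPM (down to 64.7 CPM) and Zp3r at 196.8 CPM (down to 110.9 CPM), each far above the rest of its group. These 3 genes were correlated over the spermatocyte libraries (r between 0.893 and 0.968), so their flags in 1 library are not separate observations. In null round spermatid replicate 3, Spam1 was at 123.2 CPM, below the other 3, of which the highest was at 139.9 CPM.

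A heterozygous spermatocyte library that the labels call an outlier (replicate 4) and that entered no main comparison lay above all 4 wild-type spermatocyte libraries in 7 of the 10 members (Acr, Acrv1, Spaca1, Spaca3, Spaca4, Spam1 and Zp3r). Acrv1 was at 316.7 CPM there and Zp3r at 322 CPM. Its spermatocyte markers summed to 403.4 CPM and its spermatid markers to 17230 CPM.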

How the results depend on the processing

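Counts of members called are given with the share of all genes called in the same fit. Between null and wild-type spermatocytes, 0 of 10 became 2 with DESeq2 (15.2% of all genes). It became 5 without a filter on low counts (7.61%) and 2 with only the compared groups fitted (6.93%). Leaving out each library gave 0 to 6, with 6 without wild-type spermatocyte replicate 5 (23.6%). Between heterozygous and wild-type spermatocytes, 0 of 10 became 2 with DESeq2 (6.16% of all genes) and 6 without a filter (4.30%). Leaving out libraries gave 0 to 6, with 6 without the same replicate (15.5%). Between wild-type fractions, 1 of 10 became 0 with RLE scaling, for which the share is not given here. It was 0 with the outlier libraries added back (0% of all genes) and 0 with only the compared groups (24.3%). With consecutive library numbers as a preparation block it was 0 (24.2%), and without a filter 2 (12.6%). Leaving out libraries gave 0 to 4, with 4 without wild-type spermatocyte replicate 5 (31.6%). The cause of these changes was not tested. Leaving out libraries, the median over the members ranged from 0.54 to 0.87 between null and wild-type spermatocytes, from 0.38 to 1.00 between heterozygous and wild-type spermatocytes, from -0.16 to 0.22 between null and heterozygous spermatocytes, from 0.16 to 0.34 and from 0.077 to 0.21 for null and heterozygous against wild-type round spermatids, from -0.23 to 0.18 between heterozygous fractions, from 0.056 to 0.48 between wild-type fractions and from -0.51 to -0.12 for the difference between fractions of the null change. In the 4 comparisons whose member values are given in full, changes of sign were seen for Acr, Acrbp and Zpbp, whose differences lay near 0. Between null and wild-type spermatocytes, Acrbp turned to 0.011 with the outlier libraries added back (-0.11 to 0.0030 leaving out libraries). Between heterozygous and wild-type spermatocytes, Acr turned to -0.012 without a filter (-0.0099 to 0.11 leaving out libraries), and leaving out libraries gave -0.077 to 0.34 for Acrbp and -0.18 to 0.30 for Zpbp. Between null and wild-type round spermatids, Acr turned to 0.0067 with RLE scaling, 0.0068 with DESeq2 and 0.032 without a filter (-0.039 to 0.044 leaving out libraries), Zpbp to -0.032 with the outlier libraries added back (-0.044 to 0.090), and Acrbp ranged from -0.14 to 0.052. Between wild-type fractions Acrbp ranged from -0.18 to 0.026. In each of these ranges the libraries of a group fell to 2 or 3.

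Same replicate numbers did not pair the samples: 8 of 17 pairs had correlated deviations above 0.1 (-0.546 to 0.477), against 8 of 9 pairs with consecutive library numbers (-0.0439 to 0.726). With the replicate number as a block, 1 member was called between null and wild-type spermatocytes (Spam1), beside 3.53% of all genes. Between wild-type fractions 4 were called with that block, beside 30.3% of all genes. The median of the difference between fractions was then -0.51. The near-zero values of Zpbp between null and wild-type spermatocytes (-0.037) and of Acrbp (-0.052) and Zpbp (-0.028) between heterozygous and wild-type spermatocytes changed sign.

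Over all genes, edgeR called 8 between null and wild-type spermatocytes, against 2953 with DESeq2, 2623 without a filter, 687 with the replicate block, 1303 with only the compared groups, 4 with a term for library numbers and 4526 without wild-type spermatocyte replicate 5. Between heterozygous and wild-type spermatocytes it called 5, against 1199 with DESeq2, 1481 without a filter, 2 with the block, 2 with only the compared groups, 3 with the outlier libraries added back and 2966 without that replicate. Between null and wild-type round spermatids it called 10, against 699 with DESeq2, 238 without a filter and 26 with the outlier libraries added back. Between fractions it called 4934 in wild-type, 1814 in heterozygous and 3498 in null mice, against 0, 0 and 2275 with those libraries added back, and in heterozygous mice 505 with only the compared groups and 1113 with the preparation block. Small counts also moved, from 4 to 8 with DESeq2 and 10 without a filter between heterozygous and wild-type round spermatids, and from 1 to 4 and 30 (spermatocytes; 0 with only the compared groups) and to 20 and 11 (round spermatids) between null and heterozygous. With 12825105 counts or more a library, depth did not limit the members' levels.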

Other observations

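The 2 wild-type libraries that the labels call outliers can be placed beside the members too. The library labelled wild-type spermatocyte replicate 3 had Acrv1 at 210.3 CPM, Zp3r at 231.2 CPM, Spam1 at 133.5 CPM and Spaca1 at 275.2 CPM, and its 10 members summed to 2302 CPM, between the 1836 to 2067 CPM of wild-type spermatocyte replicates 1, 2 and 4 and the 2589 CPM of replicate 5. The spermatocyte markers of replicate 3 summed to 430.8 CPM and its spermatid markers to 17740 CPM. The library labelled wild-type round spermatid replicate 3 had a spermatid marker sum of 7029 CPM, below every round spermatid library used, while its 10 members summed to 2551 CPM, above the 1859 to 2400 CPM of the wild-type round spermatid libraries used.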
